A study of Macaca fascicularis with 16 samples.

Results

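Solute carriers are the membrane proteins that move sugars, amino acids, nucleosides, vitamins, metals, ions and metabolites across the cell surface and the mitochondrial inner membrane. They were examined in mammary tissue of 16 female cynomolgus macaques, postmenopausal and ovariectomized, with 1 Affymetrix rhesus macaque array per animal, so the probes were designed for a related species. The set held every probe set whose single annotated symbol has the form SLC, a family number, A and a member number, other than 4 symbols that were left out (SLC30A2, SLC30A4, SLC34A2 and SLC6A15). A signal above 60.15, the median of the table, was required on at least 4 of the 16 arrays. That rule kept 244 probe sets of 161 genes, out of 410 probe sets of 250 genes by symbol and out of 28716 probe sets tested. For 89 genes no probe set passed, and they are not described. Of the 244 probe sets, 172 were above the median on all 16 arrays, 7 were above it on exactly 4 arrays, 4 further probe sets failed with 3 arrays, and none passed through arrays of a single group. Some, among them SLC6A2, SLC12A4, SLC5A3 and SLC22A3, passed only through the groups in which their signal was higher.

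The 4 groups of 4 animals received tibolone (0.2 mg/kg), CEE+MPA (0.042 mg/kg of conjugated equine estrogens and 0.167 mg/kg of medroxyprogesterone acetate), conjugated equine estrogens alone (CEE, 0.042 mg/kg) or no treatment (control), in a study of hormone replacement therapy. CEE is a mixture of estrogens, medroxyprogesterone acetate is a synthetic progestin, and tibolone is a synthetic steroid whose metabolites act on several steroid receptors. The labels give neither the duration nor the route of dosing. All animals lacked ovaries, so control glands had no ovarian hormone supply.

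In the mammary gland, solute carriers supply the epithelium with glucose for lactose, amino acids for milk protein and phosphate, zinc and iron for milk, and they export lactate from glycolytic cells. The family is grouped by sequence, not by substrate, so the 161 genes were sorted here into 13 substrate classes. Most carriers of the SLC25 family, the largest, sit in the mitochondrial inner membrane. A probe set's signal depends on its own probes, so levels are compared between groups for 1 probe set and never between probe sets.

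Between 48.64% and 51.81% of probe sets lay above the median on each array. Luminal epithelial markers were well represented, with 6 of 8 listed genes tested and a summed signal of 16780 to 31867 with tibolone, 27103 to 31362 with CEE+MPA, 23866 to 29434 with CEE and 22860 to 25927 in controls. The sum weighs bright markers most: the median luminal marker difference with CEE+MPA against control was -0.51, although 1 of the 6 was called higher and the sums were higher. Markers of skeletal muscle stood out on 4 arrays: the mean of 10 tested markers, centred on 0 over all arrays, was 2.55 and 1.68 on tibolone replicates 2 and 3, 1.40 on CEE+MPA replicate 1 and 2.64 on control replicate 1, and -1.34 to 0.13 on the other 12. The summed muscle signal was 849.8 to 11400 with tibolone, 596.9 to 4733 with CEE+MPA, 455 to 698 with CEE and 826 to 13054 in controls. Smooth muscle markers summed to 3143 to 6216 with tibolone, 1029 to 1841 with CEE+MPA, 3164 to 3657 with CEE and 2949 to 6296 in controls. All 3 that were tested passed as lower with CEE+MPA than in controls and as higher with tibolone than with CEE+MPA. Other lists differed in the same comparisons. With CEE+MPA against control, 2 of 3 basal and myoepithelial, 3 of 7 fibroblast, 2 of 7 adipocyte, 1 of 6 endothelial and 1 of 6 myeloid markers were called lower. With tibolone against CEE+MPA, 2 basal, 2 fibroblast and 2 adipocyte markers were called higher. The 3 basal markers tested were TP63, TRIM29 and ACTG2, while KRT5, KRT14 and KRT17 had no probe set with that single symbol. Whether this list and the smooth muscle list read the same cells was not tested. Basal markers summed to 2884 to 4636 with tibolone, 1137 to 2310 with CEE+MPA, 2606 to 3645 with CEE and 3695 to 4345 in controls. The part of these lists in the solute carrier calls was not tested. Of the 52 markers tested in 11 lists none was at 0 on any array, and no T cell marker was tested. In whole tissue, fewer cells of a type and less RNA per cell cannot be told apart. The mean of the bacterial spike-in controls dap and thr divided the arrays, at its widest gap, into 6 with low signal and 10 with high signal. On dap alone the low set read 7.13 to 7.44 on the log2 scale and the high set 7.70 to 8.52. The log2 ratio of the GAPDH 3 prime to 5 prime probe sets, a measure of RNA quality, largely followed this split. It was 0.04 to 0.26 on the low arrays and 0.58 to 0.92 on the high arrays other than tibolone replicate 2, which had 0.11. Each group had 2 arrays on either side, except tibolone, whose 4 arrays were all in the high set, so tibolone could not be compared with another group among low arrays. On dap the tibolone arrays, at 7.70 to 7.91, also lay below the 2 high CEE+MPA arrays, at 8.46 and 8.52, so those groups did not overlap on that spike-in within the high set.

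**Figure D1:**
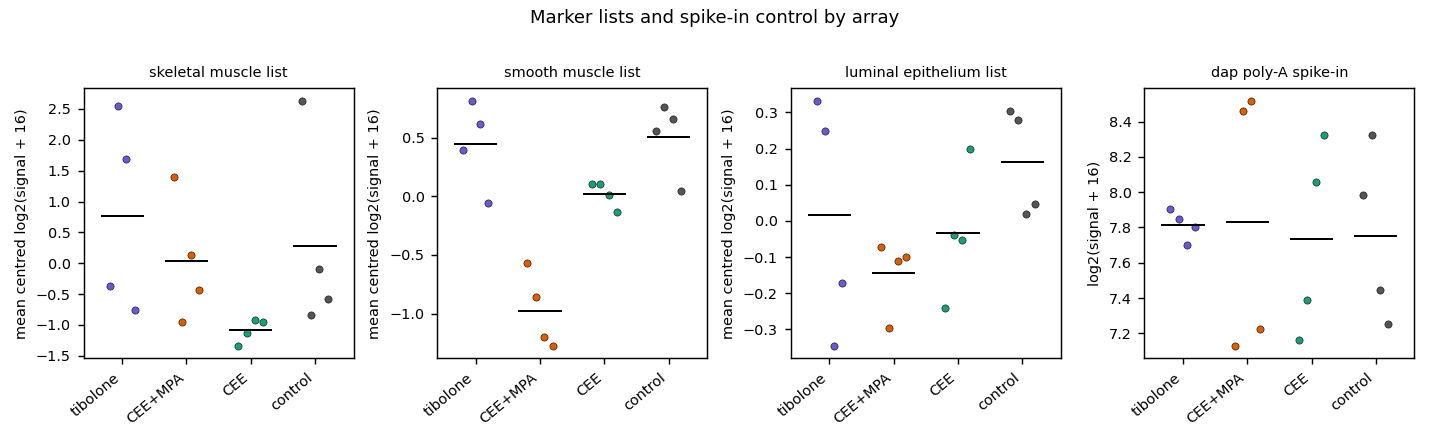
Mean centred log2(signal + 16) of the skeletal muscle, smooth muscle and luminal epithelium marker lists, and log2(signal + 16) of the dap spike-in, for each array (points) and group (bars are means of 4 arrays). Skeletal muscle markers were high on 4 arrays of 3 groups, all 4 CEE+MPA arrays were low for smooth muscle, and the 4 tibolone arrays lay between 7.70 and 7.91 for dap.

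Differences are given on the scale of log2(signal + 16), first group minus second, with the standard error from 1 limma fit over all 16 arrays. A probe set was called where its p, adjusted by Benjamini and Hochberg over all 28716 tested, was under 0.05. With CEE+MPA against control, 6 of 244 solute carrier probe sets were called (2.46%), where 6.33% of all tested probe sets were. With tibolone against CEE+MPA, 12 probe sets of 11 genes were called (4.92%), where 6.34% of all were. The first comparison gave 3 higher and 3 lower calls, 1.23% each way, beside 1.95% higher and 4.38% lower over all probe sets. The second gave 8 higher (3.28%) and 4 lower (1.64%), beside 3.78% higher and 2.56% lower over all. None of these shares exceeded that of the whole array. With each array centred on its median, the CEE+MPA against control calls were 7 higher and 2 lower (971 and 959 over all, against 561 and 1258 with the deposited scaling), and the tibolone against CEE+MPA calls 4 higher and 6 lower (674 and 1094, against 1086 and 734). The balance between higher and lower calls therefore depended on the scaling.

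The other 4 comparisons called no solute carrier in limma, beside 0.0731% of all probe sets for CEE against control, 0.0244% for tibolone against control, 0.0209% for CEE+MPA against CEE and 0.00696% for tibolone against CEE. At an unadjusted p under 0.05 there were 22 members for CEE against control (9.02%, and 12.4% of all probe sets), 11 for tibolone against control (4.51%, and 5.40%), 15 for CEE+MPA against CEE (6.15%, and 7.72%) and 23 for tibolone against CEE (9.43%, and 11.9%). The moderated F over the 3 differences from control called 1 member, SLC16A3 (0.410%), beside 3.02% of all. The median standard error of a difference was 0.22 for members and 0.20 for all tested probe sets. The 95% interval lay within a log2 difference of 1 either way for 206 of 244 members with tibolone against control, 176 with CEE+MPA against control and 194 with CEE against control, so for the rest a difference of that size lay within the interval.

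The calls rested on few arrays. For CEE+MPA against control, none of the 6 original calls held without CEE+MPA replicate 3, control replicate 1 or control replicate 2. Of those 6, 1 held without CEE+MPA replicate 2, 2 without CEE+MPA replicate 1 or control replicate 3, 5 without CEE+MPA replicate 4 and 4 without control replicate 4. For tibolone against CEE+MPA, 1 of the 12 held without tibolone replicate 2, tibolone replicate 3 or CEE+MPA replicate 3, and 4 held without CEE+MPA replicate 1 or 2. There 6 held without CEE+MPA replicate 4, 9 without tibolone replicate 1 and 10 without tibolone replicate 4, where 25 probe sets were called in all. Without the 4 muscle-rich arrays, which leaves 2 tibolone arrays, 2 of the 6 (SLC25A5 and SLC25A13) and 0 of the 12 held. In the fit blocked on 2 spike-in sets all 6 held, and 4 of the 12 did (SLC7A4, SLC12A4, SLC25A13 and the brighter SLC16A3 probe set). With 3 spike-in sets as a block, 2 of the 6 and 0 of the 12 held. With the luminal marker list as a covariate none of the 6 CEE+MPA against control calls held (adjusted p 0.0707 to 0.212), with a difference of -0.47 for SLC43A3 and 0.82 for SLC25A5. The CEE+MPA arrays enter both comparisons with calls, and the control arrays enter 3, so the values of a gene in 2 comparisons are not independent.

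**Figure D2:**
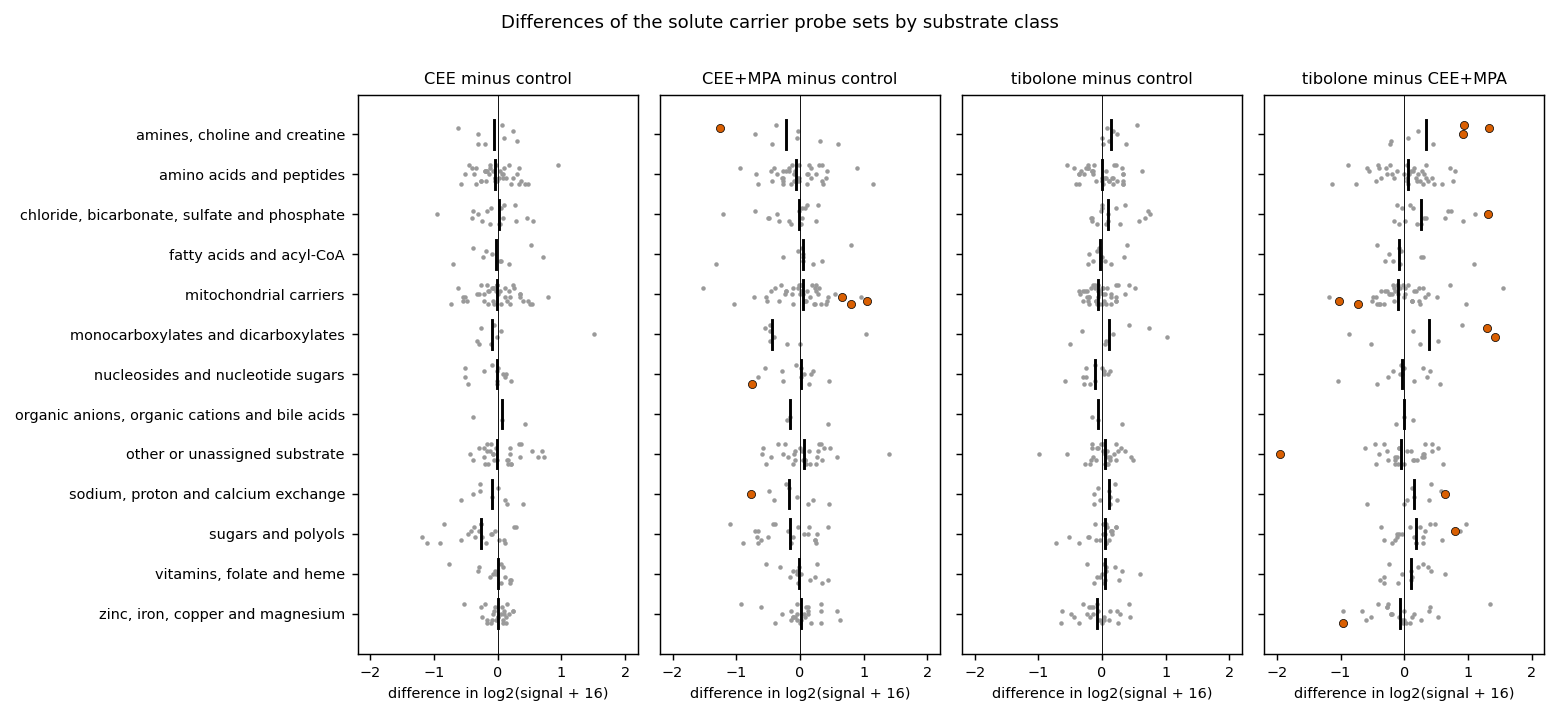
Difference in log2(signal + 16) of each of the 244 probe sets (points) by substrate class in 4 comparisons; black bars are class medians and orange points passed an adjusted p of 0.05. The 3 orange points above 0 for CEE+MPA minus control are mitochondrial carriers, and the lowest class median for CEE minus control is that of sugars and polyols (-0.27).

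Mitochondrial carriers formed the largest class, with 44 probe sets of 28 genes. They held all 3 member probe sets called higher with CEE+MPA against control, where 1.95% of all tested probe sets were called higher. At an unadjusted p under 0.05 the class had 4 higher and 5 lower in that comparison, so it did not rise as a whole. The class was drawn by family and includes the peroxisomal carrier SLC25A17 and the outer membrane protein SLC25A46. SLC25A5 encodes an ADP/ATP translocase, which exchanges matrix ATP for cytosolic ADP. Its signals were 8335, 4666, 4767 and 7549 with tibolone, 11335, 9476, 11015 and 9076 with CEE+MPA, 8083, 7802, 9503 and 7896 with CEE, and 5322, 4816, 6492 and 7016 in controls. Every CEE+MPA array lay above every control array and every tibolone array, and the CEE arrays lay above all controls as well. SLC25A5 rose by 0.80 ± 0.19 with CEE+MPA against control (adjusted p = 0.0263), and was lower with tibolone than with CEE+MPA, with a difference of -0.73 ± 0.19 (adjusted p = 0.0377). With CEE against control it differed by 0.50 ± 0.19, which did not pass (adjusted p = 0.306). The 2 low tibolone arrays, 2 and 3, were those with high skeletal muscle signal, and without the 4 muscle-rich arrays the tibolone difference was -0.31 (adjusted p = 0.633), while the difference from control was 0.70 (adjusted p = 0.0494). In the fit blocked on 2 spike-in sets its tibolone against CEE+MPA call was not kept (adjusted p = 0.0832).

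SLC25A13 encodes citrin, the aspartate and glutamate exchanger of the malate-aspartate shuttle. Its signals were 408, 299, 222 and 488 with tibolone, 492, 1188, 877 and 488 with CEE+MPA, 460.1, 424, 551 and 465 with CEE, and 361, 252, 353 and 387 in controls. All 4 CEE+MPA arrays were above all controls, and replicates 2 and 3 lay far above the other 2. SLC25A13 rose by 1.05 ± 0.28 with CEE+MPA against control (adjusted p = 0.0363), and was lower with tibolone than with CEE+MPA, with a difference of -1.03 ± 0.28 (adjusted p = 0.0406). Within the spike-in sets the difference was 0.39 among low arrays (adjusted p = 0.715) and 1.71 among high arrays (adjusted p = 0.018), and whether the sets differ was not tested. SLC25A39, which imports glutathione into mitochondria, had signals of 720.0, 655, 555 and 875 with tibolone, 1070, 1126, 939 and 722 with CEE+MPA, 843, 685, 756 and 762 with CEE, and 609.8, 656, 602 and 523 in controls. It rose by 0.66 ± 0.16 with CEE+MPA against control (adjusted p = 0.0279), with no overlap between the groups, and its difference with tibolone against CEE+MPA was -0.45 ± 0.16 (adjusted p = 0.1).

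The phosphate carrier SLC25A3, which supplies phosphate for ATP synthesis, came close. Its signals were 7218, 6748, 5847 and 7527 with tibolone, 9925, 8607, 8546 and 8835 with CEE+MPA, 8187, 8173, 7131 and 7669 with CEE, and 6311, 6239, 7570 and 7089 in controls, and its differences were 0.40 ± 0.12 with CEE+MPA against control (adjusted p = 0.057) and -0.40 ± 0.12 with tibolone against CEE+MPA (adjusted p = 0.0604). The groups did not overlap in either comparison, although the call was missed in both. Over the whole class the median difference with CEE+MPA against control was 0.055, beside -0.013 over all probe sets, with 26 of 44 probe sets above 0 and 18 below.

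SLC25A4, the ADP/ATP translocase of heart and skeletal muscle and a close paralog of SLC25A5, was read by 3 probe sets that disagreed. The 1 with the highest signal had 1372, 2041, 1711 and 1399 with tibolone, 2305, 1704, 1554 and 1716 with CEE+MPA, 1790, 1646, 1502 and 1614 with CEE, and 1890, 1553, 1591 and 1899 in controls. The second probe set had 1209, 1947, 1319 and 1197 with tibolone, 313, 1366, 263 and 403 with CEE+MPA, 350.3, 1220, 1139 and 1245 with CEE, and 1176, 1737, 1359 and 1268 in controls. It read 403 or less on 3 CEE+MPA arrays and on CEE replicate 1, and 1139 or more on the other 12, so its difference of -1.53 ± 0.45 with CEE+MPA against control rested on those 3 arrays and just missed the call (adjusted p = 0.0533). The third probe set, which shares its target sequence name with the second, differed by 0.038 ± 0.16 and the first by 0.06 ± 0.16. A single transcript level therefore cannot be given for SLC25A4, and cross-hybridisation between the paralogs was not tested.

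**Figure D3:**
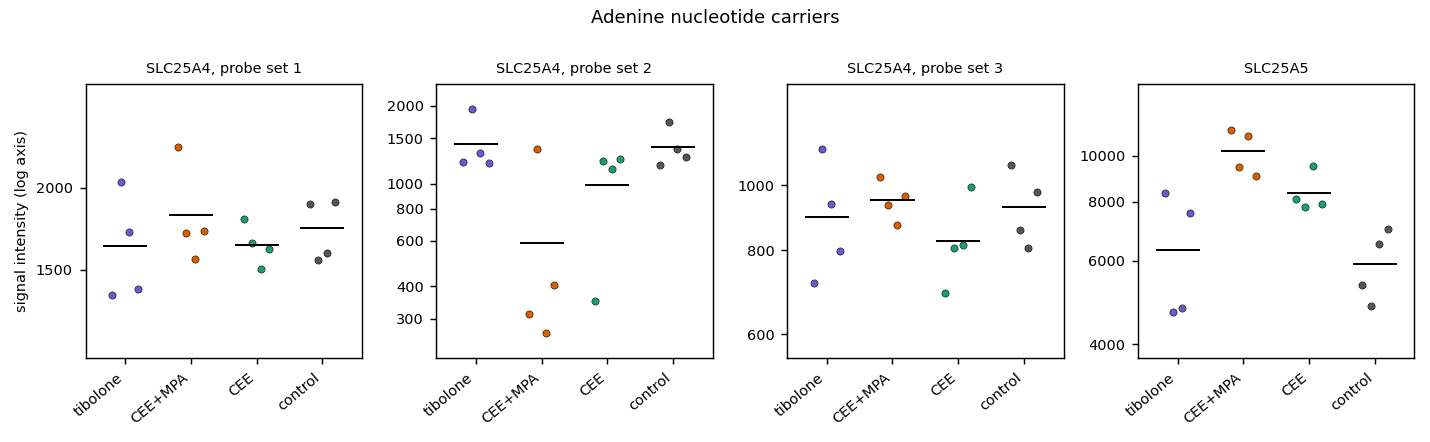
Signal intensity (log axis) of the 3 SLC25A4 probe sets and the SLC25A5 probe set on each array (points; bars are means of 4 arrays). Probe set 2 of SLC25A4 is low on 3 CEE+MPA arrays and 1 CEE array where probe sets 1 and 3 are not, and SLC25A5 is higher on all 4 CEE+MPA arrays than on all controls.

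Mitoferrin 1 (SLC25A37), which imports iron into mitochondria and is best known from red cell precursors, had 4 probe sets, all with lower means in each treated group than in controls. The brightest had 5835, 3077, 2042 and 3961 with tibolone, 2048, 1920, 2915 and 3014 with CEE+MPA, 2976, 3262, 2221 and 2888 with CEE, and 5548, 4291, 3571 and 3065 in controls, and its difference with CEE+MPA against control was -0.72 ± 0.27 (adjusted p = 0.12). None of the 4 passed in any comparison. The summed signal of 3 erythroid markers lay at 3093 to 16409 with tibolone, 2005 to 7227 with CEE+MPA, 520 to 3493 with CEE and 1771 to 16910 in controls, and its part in these values was not tested. The citrate carrier SLC25A1, which exports citrate for fatty acid synthesis, averaged 2987 ± 585 with tibolone, 2885 ± 680.1 with CEE+MPA, 2517 ± 776 with CEE and 2491 ± 422 in controls (SD, n = 4 each), with no call.

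**Figure D4:**
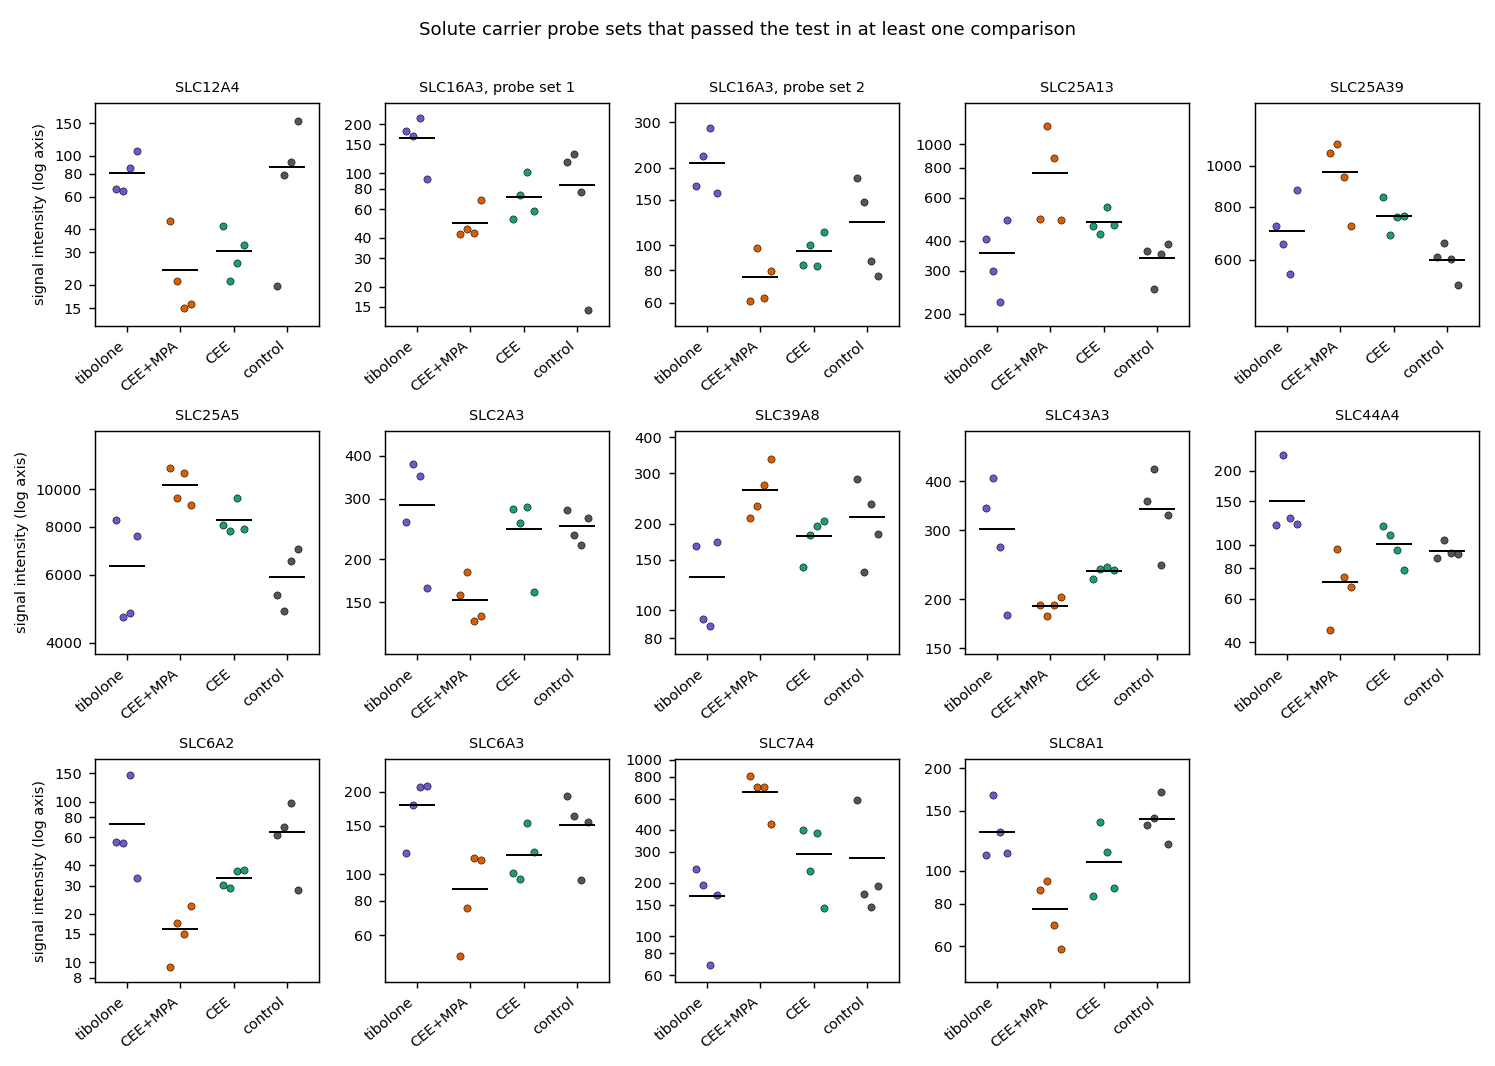
Signal intensity (log axis) on each array (points; bars are means of 4 arrays) of the 14 probe sets called in at least 1 comparison; the SLC39A8 panel is the dimmer probe set of that gene, and probe set 2 of SLC16A3 is the brighter. SLC25A5, SLC25A13 and SLC25A39 are highest with CEE+MPA, and the 8 probe sets called higher with tibolone than with CEE+MPA have their lowest mean with CEE+MPA.

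Among the monocarboxylate and dicarboxylate transporters (8 probe sets of 6 genes), SLC16A3 was called on both of its probe sets. SLC16A3 encodes MCT4, which exports lactate from glycolytic cells such as fast muscle fibres. Its brighter probe set had signals of 170.2, 222, 286 and 159.6 with tibolone, 60.9, 98.0, 62.3 and 79.4 with CEE+MPA, 83.7, 100, 83.4 and 112 with CEE, and 182, 147, 86.8 and 75.9 in controls. Every tibolone array was above every CEE+MPA and CEE array, and 1 control array, at 182, lay within the tibolone range. SLC16A3 was higher with tibolone than with CEE+MPA, with a difference of 1.29 ± 0.24 (adjusted p = 0.0121), averaging 209 ± 57.8 with tibolone and 75.2 ± 17.4 with CEE+MPA (SD, n = 4 each). The second probe set had 180.4, 168, 217 and 92.0 with tibolone, 41.9, 45.4, 42.6 and 68.5 with CEE+MPA, 51.8, 73.4, 101 and 58.5 with CEE, and 116, 132, 76.5 and 14.3 in controls. It was also called, with a difference of 1.42 ± 0.39 (adjusted p = 0.0432), again with no overlap between the groups. The brighter probe set's other differences were 0.998 ± 0.24 for tibolone against CEE (adjusted p = 0.218) and 0.74 ± 0.24 for tibolone against control (adjusted p = 0.823), and neither was called.

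The SLC16A3 signals of tibolone replicates 2 and 3, the muscle-rich arrays, were 222 and 286. Those of replicates 1 and 4, with muscle list means of -0.38 and -0.76, were 170 and 160, and the highest CEE+MPA signal was 98.0. With the muscle list as a covariate the difference was 1.20 (adjusted p = 0.0221), and without the 4 muscle-rich arrays, which leaves 2 tibolone arrays, it was 0.93 (adjusted p = 0.279). The part of muscle tissue in the SLC16A3 result was not tested. In the fit blocked on 2 spike-in sets the difference was 1.11 (adjusted p = 0.0281), and with 3 sets, none of which holds arrays of both groups, it was 1.06 (adjusted p = 0.288). The second probe set was not called with the 2 sets as a block (adjusted p = 0.11). LDHA, the lactate dehydrogenase subunit of glycolytic cells, had signals of 3774, 5195, 4638 and 3376 with tibolone, 2983, 2907, 2734 and 2221 with CEE+MPA, 4171, 3646, 2645 and 2908 with CEE, and 4269, 4402, 4094 and 3737 in controls. It was higher with tibolone than with CEE+MPA, with a difference of 0.63 ± 0.17 (adjusted p = 0.0409) and lower with CEE+MPA than in controls, with a difference of -0.61 ± 0.17 (adjusted p = 0.0453). The higher LDHA signals with tibolone, 5195 and 4638, were on the muscle-rich replicates 2 and 3. LDHA was not refitted with the muscle list, without the muscle-rich arrays or with the spike-in sets. BSG, the chaperone that carries MCT1 and MCT4 to the cell surface, was not called in any comparison, with 1436, 1694, 1676 and 1016 with tibolone, 738, 1209, 1380 and 630.4 with CEE+MPA, 1567, 721, 1688 and 988 with CEE, and 2065, 2156, 675 and 886 in controls.

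MCT1 (SLC16A1), which carries lactate in either direction, had 75.02, 111, 116 and 63.9 with tibolone, 152, 126, 94.8 and 177 with CEE+MPA, 156, 119, 89.8 and 75.6 with CEE, and 185, 126, 123 and 110.4 in controls. Its means were lowest with tibolone, with a difference of -0.51 ± 0.24 against control (adjusted p = 0.913). SLC16A7 (MCT2) and SLC16A11 were not called, with differences of 0.54 ± 0.22 (adjusted p = 0.144) and 0.90 ± 0.31 (adjusted p = 0.0855) for tibolone against CEE+MPA. SLC13A5, a citrate transporter named after its values were seen, had the widest within-group spread of all members, with a within-group SD of 1.18 on the log2 scale, where the median member had 0.33 and the median tested probe set 0.29.

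Sugar and polyol transporters (22 probe sets of 15 genes) had the lowest class median for CEE against control, -0.27, beside 0.0038 over all probe sets. Of the 22, 17 lay below 0 and 7 had an unadjusted p under 0.05, all 7 lower with CEE, but none was called. Over all probe sets 12.4% had such a p in either direction, and several of the 22 read the same gene. The class was not low with CEE alone. With CEE+MPA against control 14 of the 22 lay below 0, and 7 were lower and 1 higher at an unadjusted p under 0.05, beside 24.0% of all probe sets in either direction. SLC5A1, the sodium-coupled glucose transporter SGLT1, had 2 probe sets. The brighter had 192, 132, 194 and 101 with tibolone, 72.9, 89.6, 149 and 279 with CEE+MPA, 88.7, 118, 190.5 and 70.8 with CEE, and 249, 198, 366 and 241 in controls. The dimmer had 138, 111, 94.0 and 60.6 with tibolone, 59.7, 56.0, 101 and 153 with CEE+MPA, 69.7, 64.6, 72.6 and 25.9 with CEE, and 118, 99.5, 242 and 159 in controls. Every CEE array lay below every control array on both probe sets. The differences for CEE against control were -1.12 ± 0.35 (adjusted p = 0.233) and -1.19 ± 0.33 (adjusted p = 0.192). The dimmer probe set had the smallest p of any member in that comparison.

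SLC2A1 (GLUT1), the glucose transporter that serves most cell types and the lactating epithelium, had 432, 340.4, 276 and 285 with tibolone, 268, 296, 367 and 444 with CEE+MPA, 216, 243, 205 and 259 with CEE, and 405, 310.1, 288 and 302 in controls. The 4 CEE arrays lay below all other arrays. Its difference was -0.47 ± 0.18 for CEE against control (adjusted p = 0.306), 0.53 ± 0.18 for CEE+MPA against CEE (adjusted p = 0.476) and 0.49 ± 0.18 for tibolone against CEE (adjusted p = 0.319), with no call. The sodium and myo-inositol cotransporter SLC5A3 had 60.7, 82.4, 53.5 and 35.3 with tibolone, 42.6, 18.7, 33.3 and 36.5 with CEE+MPA, 31.3, 30.6, 35.7 and 35.2 with CEE, and 60.7, 67.0, 45.8 and 57.6 in controls, at signals mostly under the array median. Its differences of -0.58 ± 0.19 for CEE (adjusted p = 0.257) and -0.61 ± 0.19 for CEE+MPA (adjusted p = 0.0648) against control did not pass. All 4 CEE and all 4 CEE+MPA arrays were below all controls for SLC5A3, which passed the signal filter only through tibolone and control arrays.

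SLC2A3 (GLUT3), a glucose transporter of high affinity, was called on 1 of its 3 probe sets. That probe set had 257, 378, 349 and 165 with tibolone, 157, 184, 132 and 137 with CEE+MPA, 280.2, 255, 284 and 160.3 with CEE, and 279, 235, 219 and 263 in controls. It was higher with tibolone than with CEE+MPA, with a difference of 0.80 ± 0.23 (adjusted p = 0.0483), although tibolone replicate 4 lay within the CEE+MPA range. The other 2 probe sets differed by 0.87 ± 0.31 (adjusted p = 0.0985) and 0.32 ± 0.19 (adjusted p = 0.299). Without the 4 muscle-rich arrays the called probe set differed by 0.43 (adjusted p = 0.624), and in the fit blocked on 2 spike-in sets by 0.82 (adjusted p = 0.0859). The fructose transporter SLC2A5 (GLUT5) had 339.9, 351, 507 and 175 with tibolone, 117, 209, 269 and 86.3 with CEE+MPA, 263, 161, 248 and 116 with CEE, and 378, 445, 209 and 427 in controls on its brightest probe set. Its differences there were -1.09 ± 0.37 for CEE+MPA (adjusted p = 0.0812) and -0.85 ± 0.37 for CEE (adjusted p = 0.364) against control, and its other 2 probe sets also lay below 0 in both comparisons. SLC2A4 (GLUT4), the insulin-responsive transporter of muscle and fat, differed by 0.48 ± 0.28 with tibolone against CEE+MPA (adjusted p = 0.305).

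**Figure D5:**
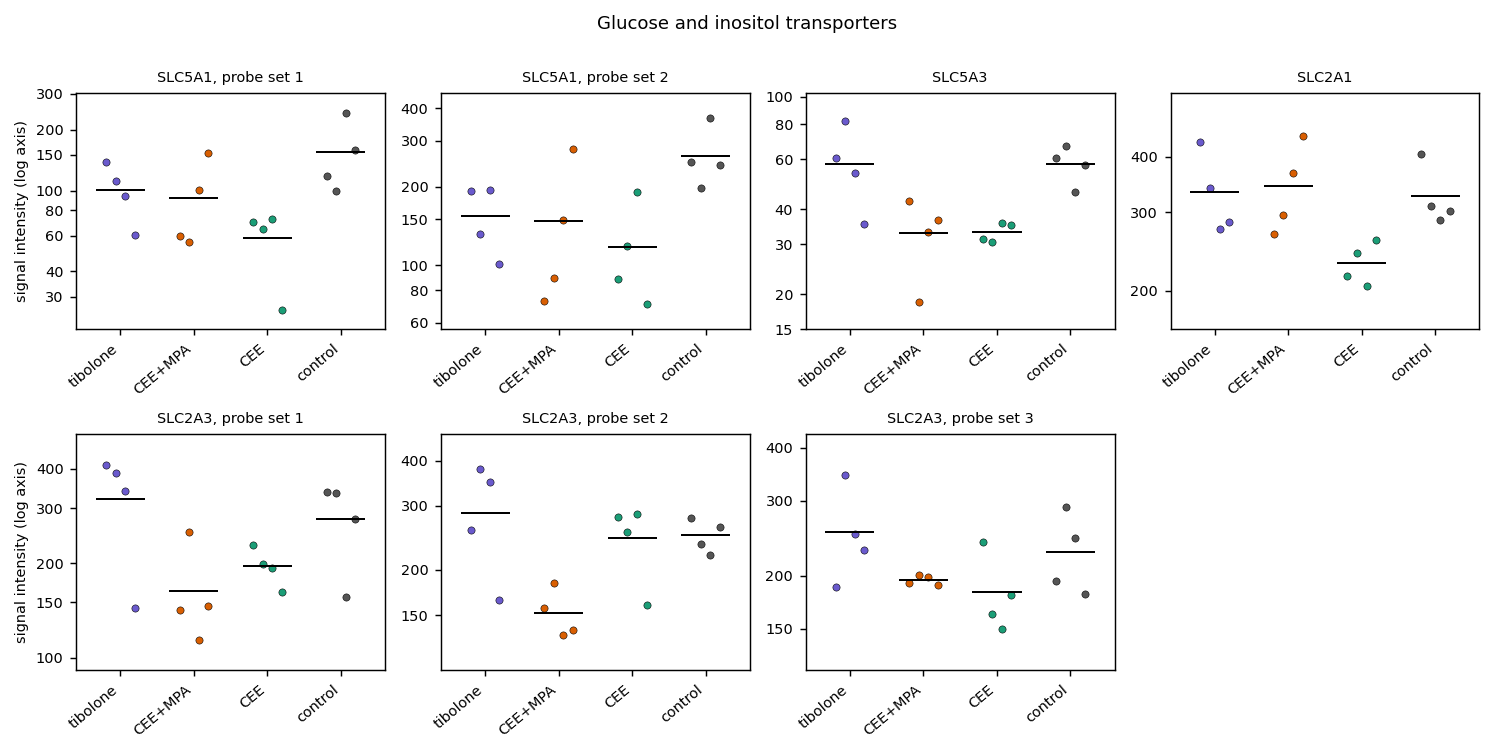
Signal intensity (log axis) of the probe sets of SLC5A1, SLC5A3, SLC2A1 and SLC2A3 on each array (points; bars are means of 4 arrays). The 4 CEE arrays lie below all controls for both SLC5A1 probe sets, SLC5A3 and SLC2A1, and the CEE+MPA mean is the lowest on 2 of the 3 SLC2A3 probe sets.

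Transporters of amines, choline and creatine (8 probe sets of 6 genes) held 1 of the 3 calls that were lower with CEE+MPA than in controls. SLC6A2, the noradrenaline transporter of sympathetic nerve endings, had 55.6, 55.1, 147 and 33.5 with tibolone, 9.36, 17.6, 14.9 and 22.2 with CEE+MPA, 30.1, 29.0, 37.0 and 37.3 with CEE, and 61.6, 69.7, 97.3 and 28.2 in controls. Every CEE+MPA array was below every other array. SLC6A2 fell by 1.26 ± 0.31 on the log2 scale with CEE+MPA against control (adjusted p = 0.0295), and was higher with tibolone than with CEE+MPA, with a difference of 1.34 ± 0.31 (adjusted p = 0.0264). It passed the signal filter on exactly 4 arrays, all of them control or tibolone arrays, the groups called higher than CEE+MPA. Its CEE+MPA signals were all under 23, far below the array median, so the offset of 16 shrinks its difference.

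SLC6A3, the dopamine transporter, had 119.7, 178, 208 and 210.3 with tibolone, 50.4, 75.1, 115 and 113 with CEE+MPA, 101, 95.8, 153 and 121 with CEE, and 192, 163, 95.2 and 155 in controls. It was higher with tibolone than with CEE+MPA, with a difference of 0.93 ± 0.25 (adjusted p = 0.0405), with no overlap, and its difference with CEE+MPA against control was -0.70 ± 0.25 (adjusted p = 0.0985). SLC44A4, a member of the choline transporter-like family, had 119.8, 233, 128 and 122 with tibolone, 44.6, 95.9, 73.7 and 67.1 with CEE+MPA, 119, 109.5, 94.5 and 78.8 with CEE, and 87.9, 104, 92.5 and 91.3 in controls. It was higher with tibolone than with CEE+MPA, with a difference of 0.93 ± 0.21 (adjusted p = 0.0232), and all 4 tibolone arrays lay above all CEE+MPA and control arrays. Tibolone replicate 2, a muscle-rich array, stood far above the other 3. Without the muscle-rich arrays the tibolone against CEE+MPA differences of SLC6A2, SLC6A3 and SLC44A4 were 0.80, 0.60 and 0.54, and none was called (adjusted p 0.415 to 0.526). In the fit blocked on 2 spike-in sets they were 1.26, 0.74 and 0.90 (adjusted p 0.0631, 0.0998 and 0.0522).

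Among exchangers of sodium, protons and calcium (9 probe sets of 7 genes), SLC8A1 encodes the sodium and calcium exchanger NCX1, which extrudes calcium in heart, smooth muscle and other cells. Its brighter probe set had 111, 166, 129.7 and 113 with tibolone, 87.9, 93.5, 69.4 and 58.8 with CEE+MPA, 84.1, 139, 114 and 89.0 with CEE, and 136, 143, 170.3 and 119.9 in controls. Every CEE+MPA array was below every control and every tibolone array. SLC8A1 fell by 0.77 ± 0.18 on the log2 scale with CEE+MPA against control (adjusted p = 0.0228), and was higher with tibolone than with CEE+MPA, with a difference of 0.65 ± 0.18 (adjusted p = 0.0442). The block for the 2 spike-in sets ended the tibolone against CEE+MPA call (adjusted p = 0.0832). The second probe set differed by -0.48 ± 0.28 (adjusted p = 0.316) and 0.58 ± 0.28 (adjusted p = 0.205). The smooth muscle list given above differed between the same groups in the same direction, and its part in the SLC8A1 result was not tested.

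Of the 17 probe sets of 8 genes that carry chloride, bicarbonate, sulfate or phosphate, 1 was called. SLC12A4, the potassium and chloride cotransporter KCC1 that regulates cell volume, had 65.8, 64.5, 86.1 and 106 with tibolone, 44.0, 21.0, 15.0 and 15.7 with CEE+MPA, 41.5, 21.0, 26.1 and 33.0 with CEE, and 19.7, 78.6, 92.2 and 155 in controls. It was higher with tibolone than with CEE+MPA, with a difference of 1.31 ± 0.36 (adjusted p = 0.043). All 4 tibolone arrays lay above all CEE+MPA and CEE arrays. SLC12A4 passed the signal filter only through tibolone and control arrays, and tibolone was the group called higher. Its CEE+MPA and CEE signals were all under the array median, so the offset shrinks its difference. Control replicate 1 was as low as the CEE+MPA arrays, and the difference for CEE+MPA against control was -1.21 ± 0.36 (adjusted p = 0.0552). SLC34A3, a sodium and phosphate cotransporter known from the kidney, had 195, 260.0, 277 and 307 with tibolone, 239.5, 198, 176 and 206 with CEE+MPA, 294, 340.4, 300.5 and 310.1 with CEE, and 324, 299.7, 267 and 281 in controls. All 4 CEE+MPA arrays lay below all CEE and all control arrays, with differences of -0.57 ± 0.14 against CEE (adjusted p = 0.269) and -0.49 ± 0.14 against control (adjusted p = 0.0503), neither of which passed. The SLC34A3 difference against CEE had the smallest p of any member for CEE+MPA against CEE.

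The 4 probe sets of SLC4A7, a sodium and bicarbonate cotransporter, gave unlike values. For tibolone against control they differed by 0.093 ± 0.13, -0.0026 ± 0.16, 0.58 ± 0.41 and 0.67 ± 0.23, with no call, and the last had unadjusted p = 0.00956. The phosphate transporter SLC20A1 (PiT1) differed by -0.71 ± 0.30 on its brighter probe set with CEE+MPA against control (adjusted p = 0.167) and by -0.14 ± 0.24 on the other. Over the family, 56 genes had more than 1 member probe set. All probe sets of a gene lay on 1 side of 0 in 35 of the 56 with CEE+MPA against control and in 28 to 35 over the 6 comparisons.

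Nucleoside and nucleotide sugar transporters (13 probe sets of 8 genes) held 1 call. SLC43A3, a purine nucleobase transporter, had 343, 409, 272 and 183 with tibolone, 194, 181, 193 and 202 with CEE+MPA, 226, 239, 242 and 237 with CEE, and 356, 431, 245 and 329 in controls on a probe set whose suffix marks probes that match several transcripts. The 4 CEE+MPA arrays lay below all 4 controls, and SLC43A3 fell by 0.75 ± 0.20 on the log2 scale with CEE+MPA against control (adjusted p = 0.0393). That call was lost under 15 of 26 alternatives, among them quantile normalization, median centring and the omission of any single CEE+MPA or control array but control replicate 3. The other SLC43A3 probe set differed by 0.012 ± 0.21, with signals of 194, 197, 177 and 193 with CEE+MPA, against 156, 235, 209 and 163 in controls, so the fall was seen on 1 of 2 probe sets. SLC29A1 (ENT1), an equilibrative nucleoside transporter, had lower means in every treated group than in controls on both probe sets. The brighter had 279, 454, 438 and 273 with tibolone, 263, 245, 251 and 333 with CEE+MPA, 329.7, 269, 296 and 311 with CEE, and 447, 471, 553 and 307 in controls, and the differences with CEE+MPA against control were -0.65 ± 0.20 (adjusted p = 0.058) and -0.55 ± 0.20 (adjusted p = 0.102). SLC28A3, a concentrative nucleoside transporter, had 2027, 1599, 1336 and 2418 with tibolone, 4297, 2293, 3612 and 5405 with CEE+MPA, 4252, 3890, 1835 and 3059 with CEE, and 1847, 1739, 3534 and 4663 in controls, and its difference with tibolone against CEE+MPA was -1.04 ± 0.35 (adjusted p = 0.0813).

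Amino acid and peptide transporters were the second largest class, with 40 probe sets of 28 genes, and limma called none in any of the 6 comparisons, with 2 to 8 at an unadjusted p under 0.05 in each. With CEE+MPA against control 15 lay above 0 and 25 below, with a median of -0.061. SLC1A2, a glutamate transporter, had 327, 152, 152 and 439 with tibolone, 453, 682, 569 and 511 with CEE+MPA, 238, 241, 651 and 311 with CEE, and 143, 148, 413 and 366 in controls. All 4 CEE+MPA arrays were above all 4 controls and all 4 tibolone arrays, yet the spread left differences of 1.14 ± 0.40 (adjusted p = 0.0975) and, for tibolone against CEE+MPA, -1.13 ± 0.40 (adjusted p = 0.0988) short of the call. SLC7A3, a cationic amino acid transporter, had 47.8, 16.1, 56.9 and 67.7 with tibolone, 96.5, 69.3, 68.8 and 33.0 with CEE+MPA, 42.8, 111, 107 and 247 with CEE, and 79.7, 41.3, 25.9 and 61.0 in controls, and differed by 0.94 ± 0.41 with CEE against control (adjusted p = 0.368). SLC36A4, an amino acid transporter of the proton-coupled family, reached 923 on tibolone replicate 2 and differed by 0.80 ± 0.29 with tibolone against CEE+MPA (adjusted p = 0.1).

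SLC1A5 (ASCT2), which takes up glutamine, had 290.3, 628, 693 and 768 with tibolone, 497, 556, 414 and 692 with CEE+MPA, 309, 547, 967 and 554 with CEE, and 440.1, 469, 435 and 425 in controls, and its differences from control were 0.33 ± 0.31 with tibolone, 0.26 ± 0.31 with CEE+MPA and 0.31 ± 0.31 with CEE, none called. SLC7A2, a carrier of arginine and lysine, had 459, 513, 444 and 576 with tibolone, 399, 469, 425 and 456 with CEE+MPA, 346, 419.7, 525 and 525 with CEE, and 446, 378, 472 and 486 in controls on its brightest probe set, and over its 4 probe sets the CEE+MPA differences from control lay between -0.12 and 0.12. The peptide transporter SLC15A2 (PEPT2) differed by -0.54 ± 0.18 on 1 of its 2 probe sets with tibolone against CEE (adjusted p = 0.289). SLC6A14, a transporter of broad amino acid range, had signals from 91.5 to 681 and was not called, with 250.5, 91.5, 178 and 464 with tibolone, 259.8, 282, 365 and 681 with CEE+MPA, 281, 215, 466 and 616 with CEE, and 356, 143, 620.4 and 200.2 in controls. SLC7A11, the cystine and glutamate exchanger, differed from control by -0.23 ± 0.35 with tibolone, -0.0094 ± 0.35 with CEE+MPA and 0.17 ± 0.35 with CEE, none called.

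SLC7A4 belongs by sequence to the cationic amino acid transporters and was kept among carriers without an assigned substrate. It gave the largest difference of any called solute carrier. Its signals were 239.6, 195, 68.2 and 171 with tibolone, 808, 702, 697 and 431 with CEE+MPA, 400.2, 233, 386 and 145 with CEE, and 592, 173, 146 and 192 in controls. Every CEE+MPA array was above every tibolone and every CEE array, but control replicate 1 lay within the CEE+MPA range. SLC7A4 was lower with tibolone than with CEE+MPA, with a difference of -1.95 ± 0.43 (adjusted p = 0.0223), and the difference for CEE+MPA against control was 1.40 ± 0.43 (adjusted p = 0.0602). Its second, dimmer probe set differed by -0.27 ± 0.16 with tibolone against CEE+MPA (adjusted p = 0.32).

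Several other transporters were not called in any comparison by limma, each with adjusted p of 0.277 or more against control or between tibolone and CEE+MPA. The neutral amino acid exchanger SLC1A4 differed from control by -0.16 ± 0.21 with tibolone, -0.27 ± 0.21 with CEE+MPA and -0.19 ± 0.21 with CEE. The glutamate transporter SLC1A3 differed by 0.19 ± 0.26, 0.15 ± 0.26 and -0.12 ± 0.26 in that order, and the glutamine transporter SLC38A1 by 0.33 ± 0.26, -0.14 ± 0.26 and 0.47 ± 0.26. SLC36A1, a lysosomal proton-coupled amino acid transporter, differed by -0.28 ± 0.13, -0.085 ± 0.13 and -0.13 ± 0.13. SLC35A1, which brings CMP-sialic acid into the Golgi, read between 657 and 981 on all 16 arrays, with an SE of 0.13. The fatty acid transport protein SLC27A1 differed by 0.14 ± 0.17, 0.21 ± 0.17 and 0.18 ± 0.17, and SLC46A1, the proton-coupled folate transporter, by -0.037 ± 0.14, -0.15 ± 0.14 and -0.12 ± 0.14. SLC9A9, an endosomal sodium and proton exchanger, differed by -0.027 ± 0.29, -0.41 ± 0.29 and -0.57 ± 0.29, with tibolone signals from 64.5 to 273.

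SLC38A6, of the sodium-coupled neutral amino acid transporter family, had the smallest p of any member for tibolone against control. Its signals were 95.7, 154, 254 and 116 with tibolone, 193, 224, 159.5 and 221 with CEE+MPA, 249.6, 245, 234 and 170.2 with CEE, and 268, 241, 357 and 380.3 in controls. Tibolone replicate 3 lay within the control range, and the difference of -0.998 ± 0.24 was not called (adjusted p = 0.395). All treated groups averaged below the controls for this gene. SLC45A3, first described in prostate, had 221, 191, 322 and 264 with tibolone, 193, 412, 256 and 251 with CEE+MPA, 208, 199, 233 and 265 with CEE, and 147, 224, 171 and 162 in controls, with differences from control of 0.46 ± 0.21 with tibolone, 0.58 ± 0.21 with CEE+MPA and 0.34 ± 0.21 with CEE, none called.

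Metal transporters (26 probe sets of 15 genes) carried 1 call. SLC39A8 encodes ZIP8, which imports zinc and manganese. Its dimmer probe set, named because it was called and not by the rule for brightest probe sets, had 167, 93.3, 88.0 and 173 with tibolone, 210.0, 231, 273 and 338 with CEE+MPA, 142, 183, 196 and 204 with CEE, and 287, 136, 234 and 185 in controls. It was lower with tibolone than with CEE+MPA, with a difference of -0.96 ± 0.24 (adjusted p = 0.0332), with no overlap. The brighter probe set had 329, 195, 141 and 506 with tibolone, 297, 631, 529 and 769 with CEE+MPA, 336, 536, 494 and 654 with CEE, and 631, 314, 357 and 416 in controls, a difference of nearly the same size, -0.97 ± 0.36, with wider spread (adjusted p = 0.109). The lowest signals on both probe sets were on tibolone replicates 2 and 3, the muscle-rich arrays, and without those and the other muscle-rich arrays the called probe set differed by -0.66 (adjusted p = 0.417). The block for the 2 spike-in sets gave -0.99 (adjusted p = 0.0618).

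SLC39A6 encodes ZIP6, a zinc importer known as an estrogen-regulated gene in human breast cancer cells. Its brightest probe set had 371, 464, 485 and 475 with tibolone, 414, 543, 404 and 551 with CEE+MPA, 604, 564, 496 and 570.0 with CEE, and 485, 519.9, 571 and 468 in controls, and its differences from control were -0.19 ± 0.14 with tibolone, -0.10 ± 0.14 with CEE+MPA and 0.13 ± 0.14 with CEE. The 95% interval for CEE was -0.17 to 0.42 on this probe set, and the other 3 SLC39A6 probe sets were not called either. The iron exporter ferroportin (SLC40A1) had 289, 580.4, 888 and 1173 with tibolone, 477, 349.5, 418 and 801 with CEE+MPA, 843, 742, 822 and 558 with CEE, and 783, 618, 851 and 777 in controls, with a difference of -0.61 ± 0.33 for CEE+MPA against control (adjusted p = 0.282). The zinc transporter SLC30A7 had 466, 465, 552 and 578 with tibolone, 676, 678, 627 and 796 with CEE+MPA, 637, 720.5, 555 and 529.5 with CEE, and 528, 499, 582 and 575 in controls on its brightest probe set, a difference of -0.42 ± 0.13 for tibolone against CEE+MPA (adjusted p = 0.0677). SLC39A11, another member of the ZIP family, differed by -0.66 ± 0.23 in the same comparison (adjusted p = 0.0929), and the copper importer SLC31A1 by -0.27 ± 0.19.

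The vitamin, fatty acid and organic ion classes held no limma call, with 0 to 3 probe sets of each at an unadjusted p under 0.05 in any comparison. In the vitamin, folate and heme class (14 probe sets of 8 genes), the riboflavin transporter SLC52A2 had 1106, 979, 849 and 1047 with tibolone, 1150, 1368, 1292 and 1156 with CEE+MPA, 914, 1001, 1359 and 1203 with CEE, and 952, 941, 1008 and 963 in controls on its brightest probe set. Its differences with CEE+MPA against control were 0.35 ± 0.14 (adjusted p = 0.128) there, with no overlap between the groups, and 0.44 ± 0.14 (adjusted p = 0.0659) on a second probe set. SLC52A3, also a riboflavin transporter, differed by -0.77 ± 0.25 with CEE against control (adjusted p = 0.246). The thiamine transporter SLC19A2 differed from control by no more than 0.20 in any treated group.

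The fatty acid class held 10 probe sets of 8 genes. SLC33A2 had 668, 509.9, 331 and 738 with tibolone, 670.1, 977, 794 and 534 with CEE+MPA, 533, 578, 801 and 498 with CEE, and 441, 386, 369 and 439 in controls, and its difference of 0.81 ± 0.23 with CEE+MPA against control just missed the call (adjusted p = 0.0509), with no overlap between the groups. SLC27A6, a fatty acid transport protein, differed by -1.31 ± 0.48 with CEE+MPA against control (adjusted p = 0.106), with 17.3, 36.6, 34.2 and 16.7 with CEE+MPA, against 44.4, 332, 100.4 and 28.6 in controls. Control replicate 2 carried much of that difference. In the organic ion class, 3 genes passed the filter. The organic cation transporter SLC22A3 had 58.1, 55.9, 74.6 and 47.7 with tibolone, 69.9, 84.1, 54.1 and 55.9 with CEE+MPA, 52.9, 67.2, 70.1 and 67.4 with CEE, and 43.8, 52.2, 43.7 and 36.0 in controls, and 11 of the 12 treated arrays lay above all controls, the exception being tibolone replicate 4, with differences from control of 0.32 ± 0.15 with tibolone, 0.44 ± 0.15 with CEE+MPA and 0.43 ± 0.15 with CEE (adjusted p = 0.913, 0.0858 and 0.281). SLC22A3 passed the signal filter only through treated arrays, the groups in which its signal was higher. Its control signals were all under the array median. The carnitine transporter SLC22A5 differed from control by -0.065 ± 0.19 with tibolone, -0.20 ± 0.19 with CEE+MPA and 0.075 ± 0.19 with CEE.

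A list of 57 genes that serve solute carriers was read beside them: subunits and chaperones, the sodium pump that sets the gradient many of them use, water channels, carriers of the family under other symbols, and enzymes that handle the cargo. Of these, 32 were tested, 8 lay under the filter and 17 had no probe set with that single symbol. With CEE+MPA against control 1 was higher and 5 were lower, and with tibolone against CEE+MPA 4 were higher and 1 was lower. Over all probe sets the shares were 1.95% higher and 4.38% lower in the first of these comparisons, and 3.78% and 2.56% in the second. In the other 4 comparisons limma called none. At an unadjusted p under 0.05 there was 1 of 32 for tibolone against control, beside 5.40% of all probe sets, and 4 for tibolone against CEE, beside 11.9%. There were 5 for CEE+MPA against CEE, beside 7.72%, and 7 for CEE against control, beside 12.4%. CEE+MPA against control had 14, beside 24.0%, and tibolone against CEE+MPA had 15, beside 25.1%. Each partner was read on its brightest probe set, while the shares count every probe set, so they are not like for like. FXYD1, a regulator of the sodium pump in muscle and other tissues, had 1530, 2013, 1427 and 1067 with tibolone, 489.8, 449, 572 and 589 with CEE+MPA, 588, 667, 958 and 867 with CEE, and 1326, 1609, 1214 and 1108 in controls. It fell by 1.29 ± 0.20 on the log2 scale with CEE+MPA against control (adjusted p = 0.0042), and was higher with tibolone than with CEE+MPA, with a difference of 1.47 ± 0.20 (adjusted p = 0.00248), without overlap in either.

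FXYD5, another regulator of the pump, was lower with CEE+MPA than in controls (-1.003 ± 0.26, adjusted p = 0.0332). The water channel AQP5, found in secretory epithelia, had 463, 675, 610.1 and 1656 with tibolone, 85.8, 201, 149 and 272 with CEE+MPA, 667, 389, 639 and 799 with CEE, and 473, 952, 743 and 270.0 in controls. It was lower with CEE+MPA than in controls, with a difference of -1.65 ± 0.42 (adjusted p = 0.0338) and higher with tibolone than with CEE+MPA, with a difference of 2.09 ± 0.42 (adjusted p = 0.0173). CEE+MPA replicate 4 read slightly above the lowest control. The organic anion transporter SLCO1A2 moved the other way, with 31.2, 9.03, 13.7 and 33.9 with tibolone, 168, 137, 44.5 and 83.7 with CEE+MPA, 18.4, 8.21, 44.0 and 18.3 with CEE, and 12.3, 23.7, 66.7 and 20.5 in controls. It was higher with CEE+MPA than in controls, with a difference of 1.41 ± 0.39 (adjusted p = 0.0423). It was lower with tibolone than with CEE+MPA, with a difference of -1.65 ± 0.39 (adjusted p = 0.0273). However, 1 control array lay within the CEE+MPA range. SLCO1A2 passed the signal filter only through CEE+MPA arrays, the group called higher, and that control array. Its tibolone and CEE signals were all under the array median. SLCO3A1, of the same family, was lower with CEE+MPA than in controls, with a difference of -0.96 ± 0.20 (adjusted p = 0.0157). FLVCR2 had 79.9, 136, 124 and 73.5 with tibolone, 46.5, 54.2, 54.0 and 33.5 with CEE+MPA, 80.2, 33.7, 27.5 and 37.8 with CEE, and 126, 127, 70.9 and 80.8 in controls. It was higher with tibolone than with CEE+MPA, with a difference of 0.90 ± 0.26 (adjusted p = 0.0482). Its CEE+MPA signals were all under the array median, so FLVCR2 passed the signal filter only through the other groups, among them tibolone, the group called higher.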

How the data were processed

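The deposited table holds 1 linear signal intensity per probe set and array, scaled by the authors to a 2% trimmed mean that came to 250.02 on 15 arrays and 250.01 on 1. Per the submitters' processing notes, GCOS and Affymetrix Expression Console were used; no version is stated in the material used. Total RNA was extracted with Tri-reagent and an RNeasy kit, per the labels' protocols. Of 52865 probe sets, 24969 had 1 annotated symbol, 361 several and 27535 none, by the platform annotation; 157 of the 161 member symbols were found in a cynomolgus RefSeq table. The 99 control probe sets were left out of the tests.

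Signals were taken to log2(signal + 16), and the offset understates fold changes at low signal. Probe sets over the table median on at least 4 arrays were fitted in limma 3.58.1 (R 4.3.3), with a mean per group and empirical Bayes moderation, for 6 comparisons and for a moderated F, with Benjamini-Hochberg adjustment over all probe sets tested. Group signals are means ± SD over 4 arrays, and the number of arrays limits the precision. The code of the fit was tested on simulated data with independent normal noise and no effect shared by an array's probe sets. That test cannot show whether the calls hold where muscle signal or spike-in sets differ between arrays. Figures were drawn with matplotlib 3.10.9.

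Genes were represented by the tested probe set of highest mean. The text names up to 8 called genes per direction and comparison, the 3 with the smallest p where fewer than 3 were called, 2 per substrate class by the moderated F, a panel of known transporters, and called partner genes; other probe sets of those genes were chosen after their values were seen. The members, classes and lists were chosen with earlier results of these data known. The alternatives were other normalization, centring, offsets, filters, variance prior, threshold and samples, and spike-in sets, RNA quality and tissue lists as terms. A block of 3 spike-in sets and a median that includes control probe sets were added after seeing the data.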

Additional observations from a re-analysis of the deposited data

Results flagged for a closer look

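In 268 sets of 4 arrays, each 1 named gene in 1 group, 11 held an array whose gap to its nearest neighbour exceeded Dixon's critical share of the group's range at the 95% level; chance gives about 1 set in 20. Among folate, thiamine and riboflavin carriers, the reduced folate carrier SLC19A1 read 3.888 on CEE replicate 2, where the next lowest CEE array had 77.90. The thiamine carrier SLC19A2 read 38.34 on CEE+MPA replicate 3, with 124.7 next. Among organic ion carriers, SLC22A3 read 52.92 on CEE replicate 1, with 67.24 next. The carnitine carrier SLC22A5 stood apart in both tibolone and CEE glands, at 532.7 on tibolone replicate 1 with 737.9 next above, and at 875.3 on CEE replicate 1 with 749.7 next below.

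Among metal carriers, the copper importer SLC31A1 read 218.5 on tibolone replicate 3, with 401.3 next, and the zinc importer SLC39A6 read 371.1 on tibolone replicate 1, with 463.6 next. The sulfate carrier SLC26A2 read 293.0 on CEE replicate 3, above 255.6. The fatty acid transport protein SLC27A3 read 157.7 on tibolone replicate 4, below 204.3, and the acetyl-CoA carrier SLC33A1 read 322.7 on CEE+MPA replicate 1, below 460.9. Of the 11, only SLC44A4 was also called: tibolone replicate 2 read 232.7, above 128.5.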

How the results depend on the processing

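No paired analysis was possible because no animal was sampled under more than 1 treatment and replicate numbers were given in accession order. No named call of a member probe set reversed under any alternative. The partner genes, LDHA and FXYD1 among them, were not refitted under the alternatives. The comparisons of CEE and of tibolone with control, CEE+MPA with CEE and tibolone with CEE gave 0 member calls in limma under each alternative. For CEE+MPA against control (6 calls) the count was 11 with offset 64, 2 with no filter, 12 with the 75th percentile filter, 11 with a trended prior, 13 with a block for the spike-in sets, 14 with the GAPDH 3 prime to 5 prime ratio as a covariate, 1 with the luminal list as a covariate, 22 at a threshold of 0.10 and 0 within the low spike-in set; without 1 array it ranged from 0 to 8. For tibolone against CEE+MPA (12 calls) it was 6 with quantile normalization, 5 with no filter, 7 with the 75th percentile filter, 4 with the spike-in block, 4 with the skeletal muscle covariate, 0 without the muscle-rich arrays, 6 with the luminal covariate, 26 at 0.10, 0 with 3 spike-in sets as a block, 4 with only the groups compared and 2 within the high set; without 1 array it ranged from 1 to 25. The moderated F (1 call) gave 2 with median centring, 2 with offset 1, 3 with offset 64, 0 with no filter, 3 with the 75th percentile filter, 2 with a trended prior, 3 with the GAPDH covariate, 0 with the skeletal muscle covariate, 12 at 0.10 and 0 with 3 spike-in sets; without 1 array it ranged from 0 to 12. Fits with fewer arrays or probe sets differ in what they test; otherwise the cause was not tested. Tibolone had no array in the low spike-in set, so no value exists there. Probe sets near background are limited by signal.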
